A study of Mus musculus with 12 samples.

Results

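Bone marrow from mice with heterozygous loss of Dnmt3a and an internal tandem duplication of Flt3 (DF) was set against bone marrow from mice with heterozygous loss of Tet2 and the same Flt3 duplication (TF). The comparison set the raw read counts of 6 libraries against each other, DF1 to DF3 against TF1 to TF3. The fit behind its p-values took its filter, scaling and spread from all 11 libraries of the series analysed here. DF mice carried the labelled genotype Dnmt3aFlox/+:MxCre with Flt3 ITD/+, and TF mice carried Tet2+/- with Flt3ITD/+. The other 5 libraries were 3 wild type (WT) and 2 of the triple genotype (TFD), which carried Tet2+/-, Flt3ITD/+, Dnmt3aFlox/+ and MxCre. All mice were of the C57BL/6 strain, and poly(I:C) was given at 8 to 10 weeks of age to mice of every genotype, WT included, 8 to 9 weeks before analysis. Poly(I:C) is itself an inducer of interferon, and MxCre is a recombinase under an interferon-responsive promoter that acts in many tissues of the mouse. In DF the loss of Dnmt3a was induced in the adult, whereas the Tet2 loss of TF was inherited and its labels name no MxCre. The gene that was lost, the time of its loss and the presence of MxCre therefore cannot be told apart in this comparison.

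Dnmt3a adds methyl groups to cytosines in DNA, and Tet2 oxidises these groups as a step toward their removal, so the enzymes act in opposite directions on the same mark. The Flt3 internal tandem duplication makes this cytokine receptor signal without its ligand and drives the output of myeloid cells at the expense of lymphoid and erythroid cells. The bone marrow measured here holds neutrophils and their precursors, monocytes, erythroblasts, lymphocytes and few dendritic cells, and a change in any of these cell types changes the bulk RNA. In bulk samples, fewer cells of a type and less RNA per cell cannot be told apart.

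The 6 libraries held between 10812015 and 15900904 counted reads, and 12175 of the 12199 listed genes passed the filter on low counts. Levels are given as CPM, the counts of a gene scaled to a common library total, after TMM scaling, which corrects the totals for differences in composition. The library TF3 stood apart from TF1 and TF2, with a distance of 2.38 to TF1 and 2.39 to TF2 on the log2 scale over the 500 most different genes, against 1.38 between TF1 and TF2. TF3 was also the only one of the 6 libraries from a female by its reads, with 30976 reads of Xist and 12 of Ddx3y. DF1 held 538 Xist reads, and the other 4 libraries held at most 32. All 3 DF libraries were from males by their reads, while TF, WT and TFD each held 1 female library, WT3 with 33978 and TFD2 with 42152 Xist reads. The counts for the main groups are given also without TF3. The labels number the libraries without naming the mice, so the p-values measure the spread between these samples.

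DF marrow was set against TF marrow to ask which genes differ in level between these genotypes. DF marrow had lower levels of interferon response genes, red cell genes, dendritic cell genes and MHC class II genes than TF marrow, and higher levels of a set of granulocyte genes. At an adjusted p under 0.05, 520 genes were lower in DF, which is 4.27% of the genes tested, and 203 were higher, which is 1.67%. In a fit of only the DF and TF libraries, 423 genes were lower and 180 higher. Of the 520 and 203 genes, 380 and 135 were called again in that fit. The 520 lower genes had a median log2 fold change of -1.57 and 364 of them fell at least 2-fold. The 203 higher genes had a median of 0.71 and only 33 of them rose at least 2-fold. The median over all genes tested was 0.02. When plain library totals scaled the counts, 659 genes were lower and 106 higher, and with a correction for gene length 501 were lower and 356 higher, so the share of higher genes among the calls moved from 28.1% to 13.9% and 41.5%.

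**Figure D1:**
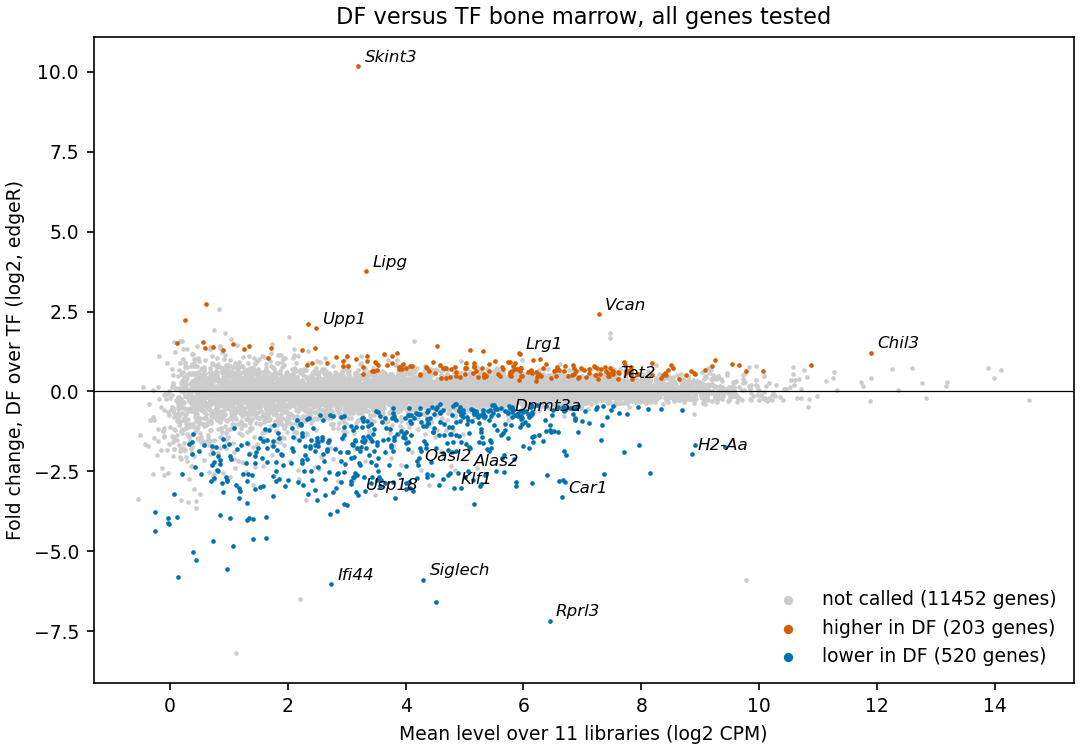
Fold change of DF over TF (vertical axis, log2) against the mean level over the 11 libraries (horizontal axis, log2 CPM) for each of the 12175 genes tested. Orange points mark the 203 genes higher in DF and blue points the 520 lower, and the lower genes spread further from 0, with a median of -1.57 against 0.71. The fitted value of Skint3, which had no read in TF, depends on the prior count of the fit.

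The counts moved with single libraries. Without TF3, 267 genes were lower and 72 higher in DF. Without DF1, DF2 or DF3 the lower genes numbered 278, 131 and 203, and the higher genes 107, 38 and 49. Without TF1 the higher genes numbered 82. Of the 520 lower genes, 258 were called again without TF3, and 517 had the same sign, the other 3 having failed the filter. Of the 203 higher genes, 59 were called again and all 203 had the same sign.

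**Figure D2:**
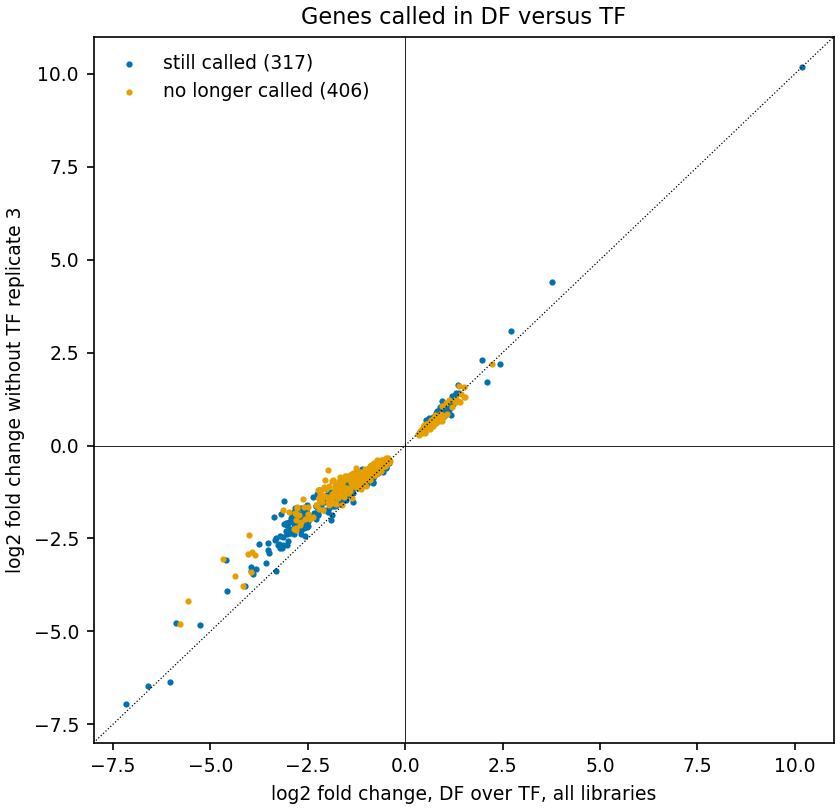
Fold change of DF over TF for the 723 called genes, with all libraries (horizontal axis, log2) and without TF3 (vertical axis, log2). The dotted line marks equal values. Of the lower genes, 258 remained called (blue) and the rest were not (orange), and most lower genes lie above the line, closer to 0.

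The targeted genes were examined first. Dnmt3a measured 46.4, 40.2 and 38 CPM in DF and 63.2, 57.7 and 86.2 CPM in TF. The 3 DF libraries lay below the 3 TF libraries, and the difference of -0.73 ± 0.20 (log2, SE) did not pass the threshold (adjusted p = 0.055), though DESeq2 called it (adjusted p = 0.0078). WT measured 30.9, 50.4 and 57.8 CPM and overlapped with both. Against WT, Dnmt3a was called higher in TF (log2 fold change 0.58 ± 0.20, adjusted p = 0.044) and was not called in DF (-0.15 ± 0.21, adjusted p = 0.58). Tet2 measured 196, 218 and 246 CPM in DF and 136, 199 and 205 CPM in TF, and the groups overlapped (log2 fold change 0.29 ± 0.16, adjusted p = 0.35). Tet2 in WT was 152, 169 and 148 CPM, with TF1 below and TF2 and TF3 above this range, and Tet2 was called higher than WT in DF (0.49 ± 0.16, adjusted p = 0.026) and not in TF (adjusted p = 0.33). These counts sum all exons of a gene, and a heterozygous deletion of part of it is not read out by them. Flt3, which carries the duplication in both genotypes, measured 59.2, 47.9 and 33.0 CPM in DF and 65.4, 55.4 and 71.3 CPM in TF (adjusted p = 0.40). Among 18 DNA methylation genes tested, 1 was higher and 1 lower, a count too small to set apart from that of all genes. Dnmt3l, a catalytically inactive partner of the Dnmt3 enzymes, was at 1.35 to 1.98 CPM in DF and 0.404 to 0.736 CPM in TF (log2 fold change 1.51 ± 0.39, adjusted p = 0.040). Mbd4, a glycosylase that repairs deaminated methylcytosine, fell by 0.47 on the log2 scale (SE 0.12, adjusted p = 0.039). Neither Dnmt3l (adjusted p = 0.088) nor Mbd4 (adjusted p = 0.15) was called without TF3.

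Type I interferons signal through a complex that holds Irf9 and binds interferon-stimulated response elements (ISREs) near its target genes and turns on antiviral effectors. All 55 genes of the type I interferon list were tested, and 41 were lower in DF than in TF, with none higher. The median log2 fold change of the list was -1.34 against 0.02 for all genes, and 54 of 55 values were negative. In 46 of the 55 genes every DF library lay below every TF library, where 12.1% of all genes tested did so. Without TF3 the median was -1.06 and 30 members were called. Without DF2, 22 were called.

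The sequences upstream of the interferon genes that fell were searched for the ISRE, and some of the windows that hold it are shown. Of the 41 genes called lower, 29 have a promoter window in the RefSeq table for GRCm38.p6, and the 250 bases before the first listed start were read. The ISRE core was searched on both strands as GAAA, any 2 bases, and GAAA again. It was found in 14 of the 29, or 48.3%, and in 16 of all 40 list members with a window, or 40%, against 2.83% of the 9245 tested genes with a window and 3.04% of all 27025 genes with one. The windows of Oas3 (chr5:120777660-120777909 on the minus strand), Oas1a (chr5:120907526-120907775 on the minus strand) and Rsad2 (chr12:26456453-26456702 on the minus strand) follow, 5′ to 3′ in the direction of transcription, with the match in capitals.

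Oas3: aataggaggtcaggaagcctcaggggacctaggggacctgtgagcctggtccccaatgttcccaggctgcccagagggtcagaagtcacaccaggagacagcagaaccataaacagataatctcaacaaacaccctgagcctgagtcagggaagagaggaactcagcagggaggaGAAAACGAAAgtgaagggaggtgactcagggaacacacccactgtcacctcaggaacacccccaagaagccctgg
Oas1a: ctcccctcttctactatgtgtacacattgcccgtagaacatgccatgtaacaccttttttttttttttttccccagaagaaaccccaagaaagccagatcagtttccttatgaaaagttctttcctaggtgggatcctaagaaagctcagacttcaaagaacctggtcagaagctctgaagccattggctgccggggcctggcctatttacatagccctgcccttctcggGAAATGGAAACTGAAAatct
Rsad2: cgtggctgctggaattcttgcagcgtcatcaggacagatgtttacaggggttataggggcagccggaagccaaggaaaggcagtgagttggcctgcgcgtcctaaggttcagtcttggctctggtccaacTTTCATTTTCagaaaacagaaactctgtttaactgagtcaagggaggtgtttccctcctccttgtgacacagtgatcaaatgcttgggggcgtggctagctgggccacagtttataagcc

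The match begins 75 bases before the start in Oas3 and 120 bases before it in Rsad2, where it lies on the other strand. Oas1a holds 2 overlapping matches that begin 20 and 14 bases before its start. A match is a description of these letters and shows no binding.

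The signalling components of the pathway were among the genes that fell. Irf9, the DNA-binding subunit, was at 48.8, 44.2 and 45.1 CPM in DF and at 90.3, 77.6 and 97.3 CPM in TF. The groups did not overlap, and the 3 WT libraries, at 62.8, 61.1 and 61.2 CPM, lay between them (log2 fold change -0.94 ± 0.11, adjusted p = 0.0012). Stat2 fell by 0.69 (SE 0.16, adjusted p = 0.023). Irf7, the factor that amplifies interferon production, was at 15.3, 14.1 and 21.1 CPM in DF and 46.5, 35.7 and 68.3 CPM in TF (log2 fold change -1.58 ± 0.22, adjusted p = 0.0030). Without TF3, Irf9 (adjusted p = 0.0010) and Irf7 (adjusted p = 0.0010) were called, while Stat2 (adjusted p = 0.078) was not.

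Among the effectors were genes of the oligoadenylate synthetase family, whose enzymes sense double-stranded RNA and activate RNase L. Oas3 was at 20.2, 17.1 and 21.1 CPM in DF, 67.2, 51.0 and 95.3 CPM in TF and 43.3, 46.3 and 52.3 CPM in WT. Every DF library lay below the WT range, TF1 and TF3 lay above it and TF2 within it (log2 fold change of DF over TF -1.87 ± 0.20, adjusted p = 0.0012). Oasl2 was at 6.51, 5.15 and 7.62 CPM in DF and 31.4, 19.0 and 43.8 CPM in TF, with no overlap (log2 fold change -2.30 ± 0.27, adjusted p = 0.0013). Oas2 and Oas1a fell by 2.85 (SE 0.40) and 2.49 (SE 0.35), with an adjusted p of 0.0033 each. Reads of the near-identical Oas1 copies may have been split between them, so the single values of Oas1a and Oas1g are uncertain, and Oas1g was not called (adjusted p = 0.059).

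Usp18, which removes Isg15 from proteins and restrains the interferon receptor, was at 2.30, 1.99 and 1.29 CPM in DF and 15.6, 10.1 and 27.6 CPM in TF. WT lay between them at 8.29, 8.91 and 9.58 CPM, and the ranges of these 3 genotypes did not overlap (log2 fold change -3.22 ± 0.36, adjusted p = 0.0012). Isg15 itself was at 2.30, 1.22 and 1.09 CPM in DF and 4.61, 3.52 and 12.6 CPM in TF (log2 fold change -2.14 ± 0.52, adjusted p = 0.033). It was not called without TF3 (adjusted p = 0.12). Rsad2, the antiviral enzyme viperin, was at 5.48, 6.50 and 8.61 CPM in DF and 37.2, 21.0 and 67.1 CPM in TF (log2 fold change -2.61 ± 0.37, adjusted p = 0.0033).

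Ifi44, an interferon-induced cytoplasmic protein on chr3:151730923-151749959 (GRCm38), had the largest fall in the list. It was at 0.476, 0.0644 and 0.0990 CPM in DF and at 33.9, 2.13 and 7.21 CPM in TF, so the spread within TF was itself wide. The groups did not overlap (log2 fold change -6.04 ± 1.08, adjusted p = 0.0079), and the call held without TF3 (adjusted p = 0.0044). Without TF1, the highest library, the log2 fold change was -4.40, still called, and without DF2 the adjusted p was 0.062. Among the 14 members not called, Ifit2 was at 14.9 to 22.2 CPM in DF and 20.9 to 56.6 CPM in TF, and Nmi was level, at 22.1 to 23.6 CPM in DF and 21.7 to 24.3 CPM in TF.

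Set against WT in the same fit, the list showed each genotype's own shift, the comparisons sharing the WT libraries. In DF, 21 of the 55 members were lower than WT and 3 higher, with a median log2 fold change of -0.49. In TF, 30 were higher than WT and 1 lower, with a median of 0.65. Over all genes, 16.6% were lower and 21.0% higher in DF than in WT, and 15.6% were lower and 19.0% higher in TF. The summed level of the list was 2150, 2200 and 2423 CPM in DF, 4071, 3070 and 5031 CPM in TF and 2409 to 3024 CPM in WT. DF1 and DF2 were below every WT library, DF3 was level with the lowest of them, and all TF libraries were above them. The TFD libraries summed to 2527 and 3034 CPM.

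**Figure D3:**
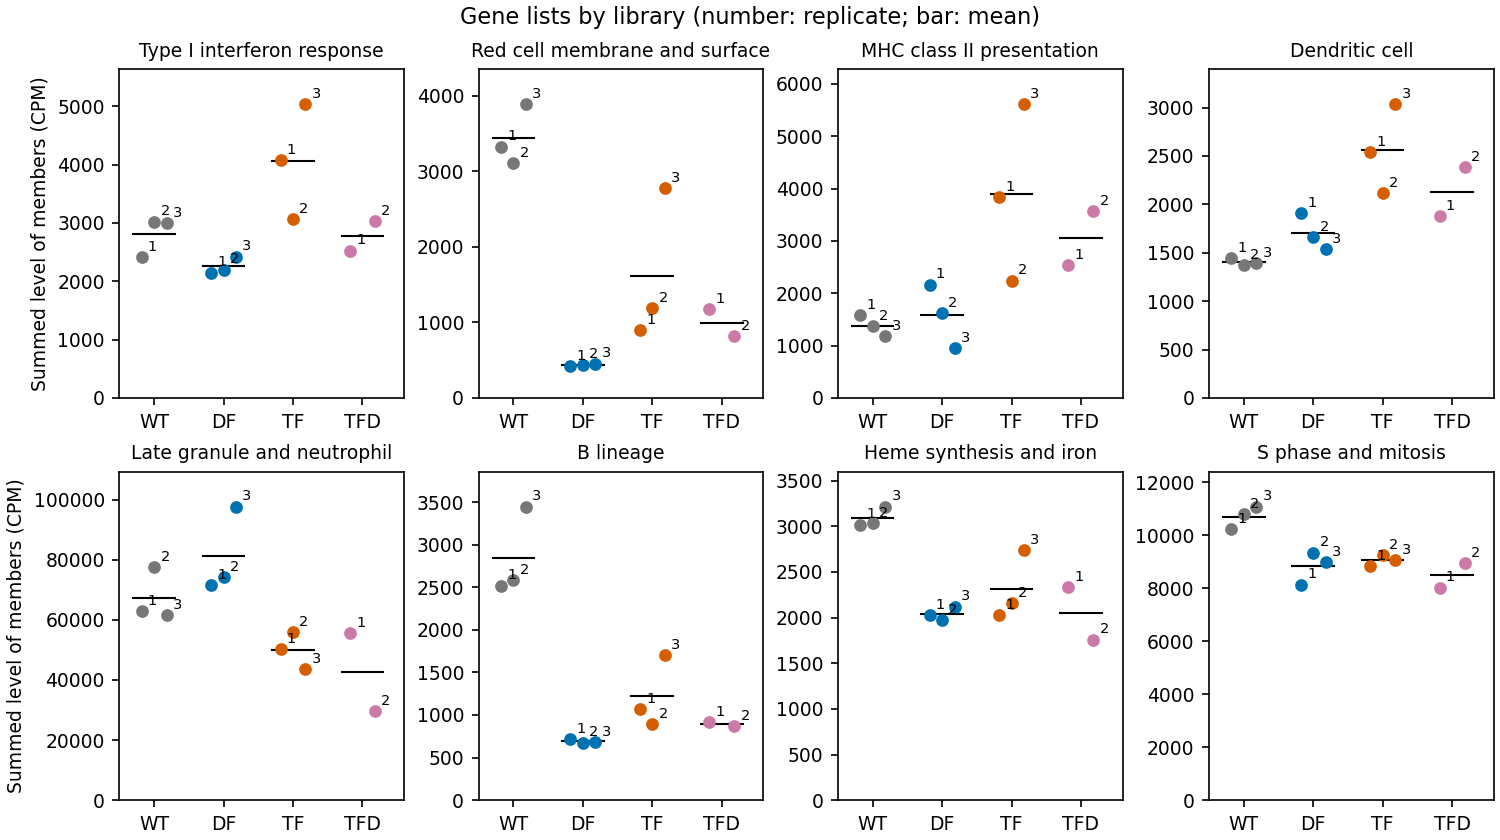
Summed level of the members of 8 gene lists (vertical axes, CPM, starting at 0) in each library of WT, DF, TF and TFD. Points are libraries with their replicate number and bars are group means. In the red cell membrane list DF sits at 419 to 454 CPM and WT at 3104 to 3884 CPM, and in the interferon list TF sits above the other genotypes.

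Interferon gamma acts on an overlapping set of genes. Of 29 members of this list tested, 12 were lower and 1 was higher in DF, and the median was -0.68 (log2). Without TF3 the median was -0.45 and 6 were lower. Irgm1, a GTPase of cell-autonomous immunity, was at 24.6, 24.6 and 23 CPM in DF and 58, 37.1 and 68.7 CPM in TF, with no overlap (log2 fold change -1.18 ± 0.18, adjusted p = 0.0038). Tgtp2 and Gbp9, GTPases of the same defence, fell by 1.86 (SE 0.30, adjusted p = 0.0048) and 1.37 (SE 0.24, adjusted p = 0.0076). The gene that rose was Upp1, a uridine phosphorylase, at 9.13, 12 and 5.64 CPM in DF and 1.78, 1.88 and 3.19 CPM in TF (log2 fold change 1.98 ± 0.30, adjusted p = 0.0038). Without DF1, DF2 or DF3 the lower members numbered 6, 3 and 5.

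MHC class II molecules present peptides to CD4 T cells and are carried in marrow mainly by dendritic cells, B cells and some monocytes. Of 18 members, 10 were lower in DF and none higher (median log2 fold change -1.16, and -0.76 without TF3). H2-Aa, the alpha chain of I-A, was at 336, 251 and 87.9 CPM in DF and 846, 437 and 1363 CPM in TF. Both groups spread widely but did not overlap (log2 fold change -1.97 ± 0.43, adjusted p = 0.021), and WT, at 193 to 251 CPM, fell within the DF range. H2-DMb1, a subunit of the peptide exchange factor, was at 57, 40.3 and 29.6 CPM in DF, 93.7, 69.5 and 98.0 CPM in TF and 17.2 to 24.1 CPM in WT. Both genotypes were thus above WT, and TF more so (log2 fold change of DF over TF -1.04 ± 0.21, adjusted p = 0.016). Ciita, the master activator of class II genes, fell by 1.70 (SE 0.44, adjusted p = 0.041). Without TF3 neither H2-Aa (adjusted p = 0.058) nor Ciita (adjusted p = 0.13) was called. The list leaned on single libraries: 3 members were called without TF3, 5 without TF1, 1 without DF2, 1 without DF3 and 6 without WT2. Among 22 MHC class I genes, 5 were lower and none higher, Tap1, the peptide transporter, at 102, 84.9 and 95.4 CPM in DF and 147, 133 and 150 CPM in TF (log2 fold change -0.61 ± 0.11, adjusted p = 0.0079). Without TF3, 1 of the class I genes was called, without DF1 or TF1 2, without DF3 3 and without DF2 none.

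Dendritic cells were described by a list of 29 genes, of which 17 were lower in DF and none higher (median log2 fold change -1.56, and -1.18 with 12 called without TF3). Without DF2, 6 members were called, and without DF3, 8. Siglech, a lectin of plasmacytoid dendritic cells, which are a main source of type I interferon, was at 1.35, 0.0644 and 0.0990 CPM in DF and 15.8, 11.9 and 63.2 CPM in TF. WT was at 35.5, 42.2 and 42.3 CPM, so that DF2 and DF3, with 1 read each, were nearly without it (log2 fold change of DF over TF -5.89 ± 0.94, adjusted p = 0.0048). Ccr9, a chemokine receptor of the same cells, was at 0.635, 0.644 and 0.495 CPM in DF, 2.75, 1.88 and 14.6 CPM in TF and 12.4 to 13.8 CPM in WT (log2 fold change of DF over TF -3.38 ± 0.74, adjusted p = 0.021). Both genes stayed called without TF3, with an adjusted p of 0.0022 for Siglech and 0.024 for Ccr9. Pacsin1 was at 0.129 to 0.238 CPM in DF and 1.70, 1.55 and 11.1 CPM in TF (log2 fold change -4.61 ± 0.94, adjusted p = 0.015), and the value without TF3 was -3.08. Tcf4, the factor that sets plasmacytoid identity, fell by 1.20 (SE 0.24, adjusted p = 0.015).

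Clec9a, the receptor for dead cells on cross-presenting dendritic cells, was at 9.05, 7.21 and 5.34 CPM in DF, 47.6, 23.2 and 68.1 CPM in TF and 5.42 to 7.70 CPM in WT. DF overlapped with WT, and TF was above both (log2 fold change of DF over TF -2.67 ± 0.38, adjusted p = 0.0034). Zbtb46, a factor of conventional dendritic cells that erythroid progenitors and endothelial cells also express, showed another order, with 1.98, 2.19 and 1.19 CPM in DF, 8.48, 6.38 and 17.5 CPM in TF and 9.44 to 11.4 CPM in WT (log2 fold change of DF over TF -2.55 ± 0.41, adjusted p = 0.0048). Batf3 was at 1.39 to 2.70 CPM in DF and 2.86 to 8.57 CPM in TF, and its adjusted p of 0.059 missed the threshold. The summed level of the dendritic list was 1906, 1664 and 1540 CPM in DF and 2537, 2115 and 3032 CPM in TF. These cells make and sense interferon, and the part of their markers in the lower interferon list was not tested.

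Members called lower made up 24.2% of the B lineage list, 14.7% of the T lineage list and 12% of the NK and cytotoxic list. The share was 58.6% in the dendritic cell list and 4.27% over all genes. The B lineage list had 8 of 33 members lower in DF and a median log2 fold change of -1.36, or -0.64 without TF3. Its summed level was 676 to 716 CPM in DF and 1066, 896 and 1699 CPM in TF, so that all TF libraries were above DF and TF3 the highest. Of the markers that define B cells, Cd79a was at 1.35, 0.644 and 0.495 CPM in DF, 1.54, 1.39 and 9.94 CPM in TF and 41.2 to 56.6 CPM in WT, and Pax5 and Ebf1 were below 2 CPM in every DF library and in TF1 and TF2. None of Cd79a, Pax5 and Ebf1 was called. The 4 called members with the smallest p were Jchain, Spib, Irf4 and Bcl11a, which plasmacytoid dendritic cells also express, Jchain also being a gene of plasma cells. Spib was at 3.57, 0.965 and 0.891 CPM in DF and 13.8, 8.67 and 40.9 CPM in TF (log2 fold change -3.53 ± 0.69, adjusted p = 0.013). Cd22, an inhibitory receptor of B cells, was at 2.62, 0.837 and 2.28 CPM in DF and 6.06, 4.42 and 38.1 CPM in TF (log2 fold change -3.11 ± 0.73, adjusted p = 0.028, and 0.033 without TF3). The T lineage list had 5 of 34 members lower (median -0.84, and -0.44 without TF3) and summed to 125 to 157 CPM in DF and 159 to 332 CPM in TF. Without DF2 neither list had a called member, without DF3 each had 1, without DF1 they had 5 and 1, without TF3 5 and 3, and without TF2 14 and 12. The 25 NK and cytotoxic genes had a median of -0.08 and summed levels that overlapped, at 807 to 1036 CPM in DF and 762 to 900 CPM in TF. Of them 3 were lower, among them Klrd1, a lectin-like receptor chain, at 4.29, 3.09 and 4.95 CPM in DF and 16.8, 8.10 and 34.9 CPM in TF (log2 fold change -2.29 ± 0.41, adjusted p = 0.0080). The defining NK gene Ncr1 was below 2 CPM in all 6 libraries, and without DF2 no gene of this list was called.

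**Figure D4:**
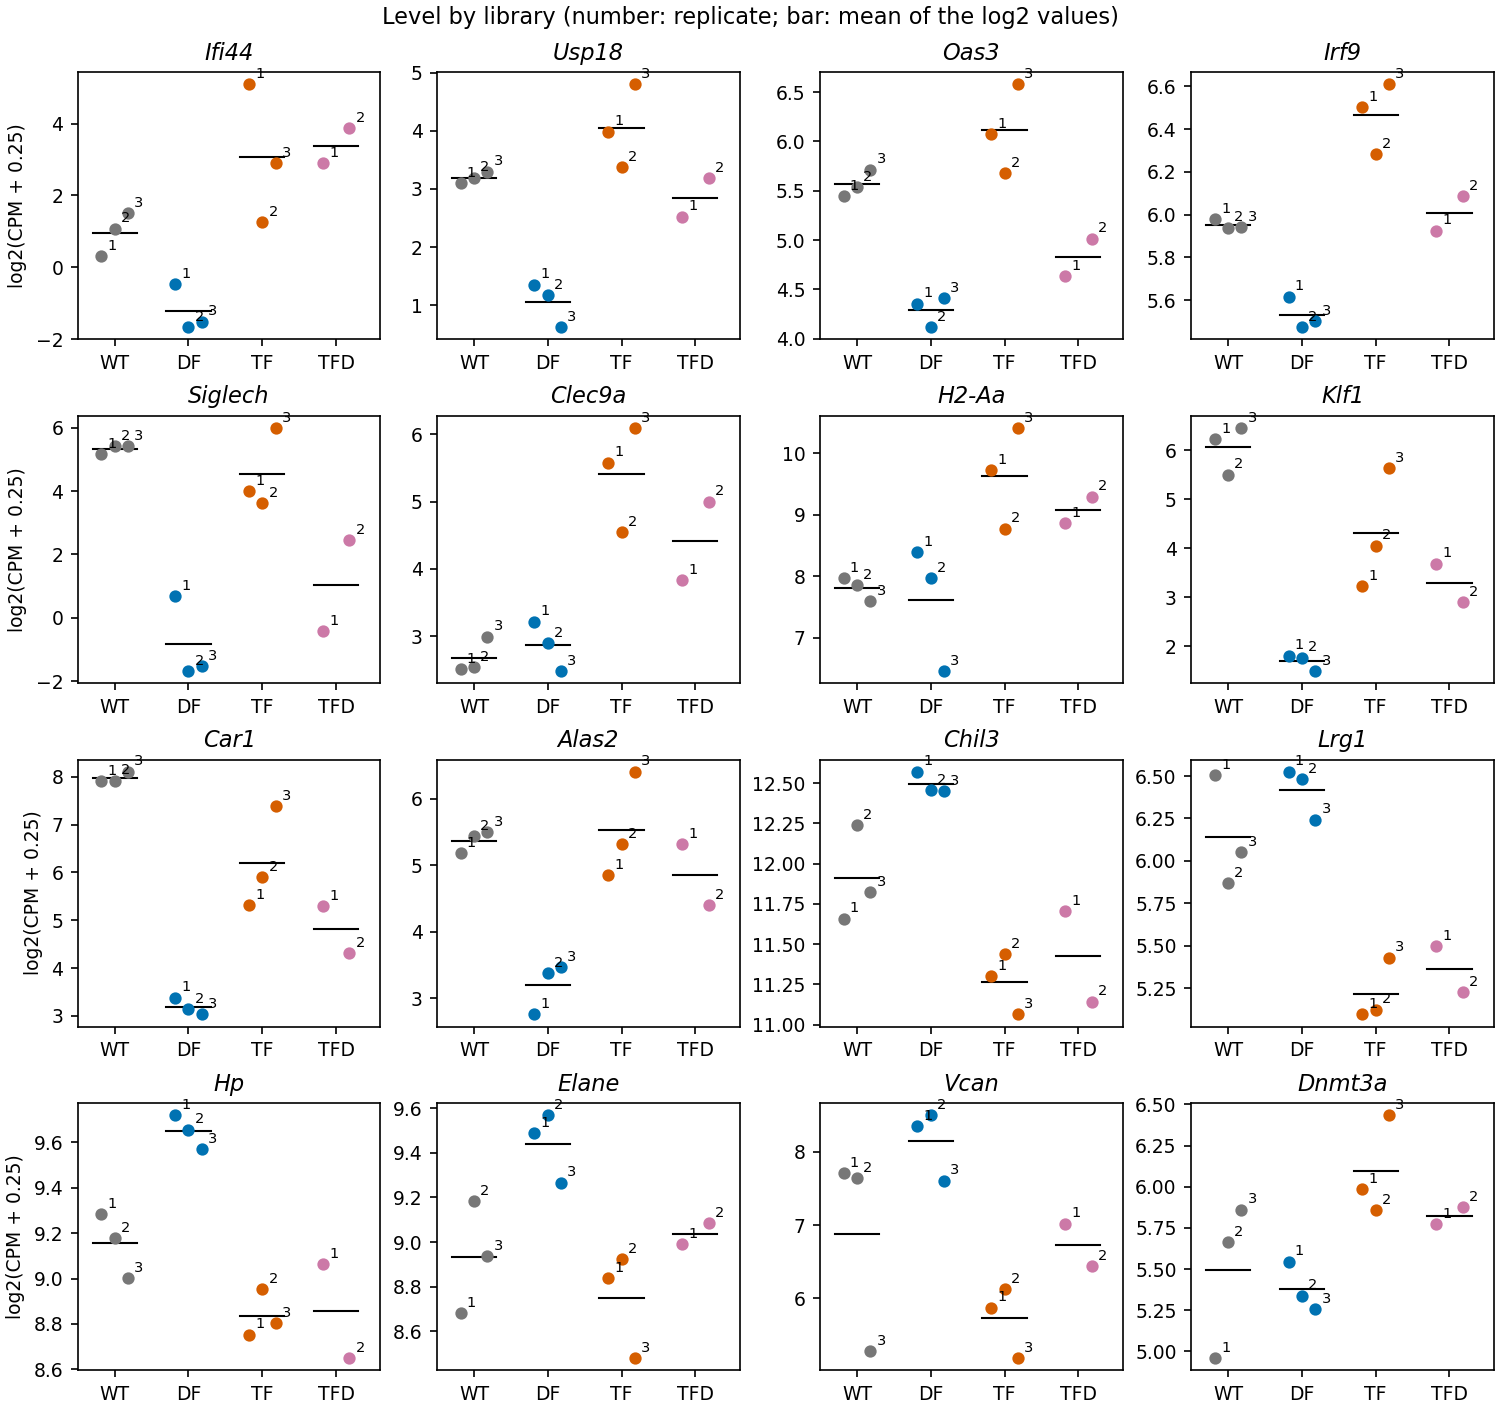
Level of 16 genes (vertical axes, log2 of CPM plus 0.25) in each library of WT, DF, TF and TFD. Points are libraries with their replicate number and bars are means of the log2 values. TF3 is the highest TF library for most genes that are lower in DF, such as Klf1, Car1 and H2-Aa, while for Ifi44 the highest is TF1.

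Red cell development depends on the factors Gata1 and Klf1, on the erythropoietin receptor, and on heme for hemoglobin. Globin mRNA was depleted from the RNA before sequencing, and globin genes were not analysed here. Of the 32 red cell membrane and surface genes tested, 24 were lower in DF and none higher (median log2 fold change -2.65). Without TF3 21 were called and the median was -1.83, and with any 1 of the 11 libraries left out between 20 and 27 were called. The summed level was 419, 442 and 454 CPM in DF, 897, 1184 and 2776 CPM in TF and 3104 to 3884 CPM in WT. The 3 DF libraries were close to each other and lay far below WT, while TF1 and TF2 lay between and TF3 near WT. Against WT, 29 of the 32 members were lower in DF (median -3.46) and 17 were lower and 1 higher in TF (median -1.09).

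Car1, a carbonic anhydrase abundant in red cell precursors, was at 10.2, 8.56 and 7.92 CPM in DF, 39.8, 59.5 and 167 CPM in TF and 240 to 276 CPM in WT (log2 fold change of DF over TF -3.31 ± 0.46, adjusted p = 0.0031). Slc4a1, the band 3 anion exchanger of the red cell membrane, was at 25.7, 39.7 and 44.8 CPM in DF and 116, 162 and 377 CPM in TF (log2 fold change -2.57 ± 0.39, adjusted p = 0.0038). Add2, the beta chain of adducin in the membrane skeleton, fell by 2.95 (SE 0.38, adjusted p = 0.0024). In each of these genes the 3 DF libraries lay below all TF libraries, and all were called without TF3, with an adjusted p of 0.0010 for Slc4a1 and 0.00018 for Car1 and Add2. Slc2a1, a glucose transporter that many cell types use, and Xk were not called, at adjusted p of 0.55 and 0.79.

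Of 20 erythroid transcription factors and receptors, 8 were lower and none higher (median log2 fold change -0.44, and -0.10 without TF3). Their summed level overlapped, at 1684 to 1812 CPM in DF and 1789 to 2432 CPM in TF. Gata1 was at 1.75, 2.06 and 3.07 CPM in DF, 5.33, 11.2 and 24 CPM in TF and 23 to 39.3 CPM in WT (log2 fold change of DF over TF -2.57 ± 0.48, adjusted p = 0.010). Klf1 was at 3.25, 3.15 and 2.57 CPM in DF, 9.13, 16.4 and 49.3 CPM in TF and 45.0 to 87.4 CPM in WT (log2 fold change of DF over TF -3.03 ± 0.55, adjusted p = 0.0082). Both genes were ordered DF, TF and WT from low to high, TF3 alone reaching into the WT range. Epor, the erythropoietin receptor, was at 0.873, 0.837 and 1.29 CPM in DF and 3.23, 4.25 and 14.5 CPM in TF (log2 fold change -2.88 ± 0.53, adjusted p = 0.0095). Members that other marrow cells also express, such as Lmo2, Ikzf1 and Kit, were not called. The 8 fell to 5 without TF3, to 5 without DF1, to 4 without DF3 and to 1 without DF2.

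Heme synthesis and iron genes showed the erythroid and the general enzyme of the first step moving apart. Of 21 genes, 8 were lower and 1 higher (median log2 fold change -0.61, and -0.33 without TF3). Their summed level overlapped, at 1973 to 2121 CPM in DF and 2030 to 2743 CPM in TF. Alas2, the erythroid form of the first enzyme, was at 6.51, 10.2 and 10.8 CPM in DF and 28.5, 39.7 and 84.5 CPM in TF (log2 fold change -2.47 ± 0.37, adjusted p = 0.0038). Alas1, the form of all cells, was at 239, 258 and 214 CPM in DF and 146, 191 and 124 CPM in TF, and was the member that rose (log2 fold change 0.63 ± 0.17, adjusted p = 0.049), though not without TF3 (adjusted p = 0.18). Alad, the second enzyme, fell by 2.48 (SE 0.32, adjusted p = 0.0024), while Ppox (adjusted p = 0.83) was not called. Without TF3, 7 members were lower, and without DF1, DF2 or DF3 3 were.

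The promoters of the erythroid genes are shown for the letters read by GATA factors. Of the 40 genes called lower in the 3 erythroid lists, 28 have a window. AGATAA or TGATAA on either strand was found in the first 250-base window of 12 of them, or 42.9%, against 9.38% of the tested genes with a window and 17% of all genes with one. Over all tested members of the 3 lists with a window it was 14 of 53, or 26.4%, and 9 of 30 late granule and neutrophil genes held it, or 30%. The windows of Alas2 (chrX:150547167-150547416 on the plus strand), Klf1 (chr8:84901732-84901981 on the plus strand) and Epor (chr9:21963577-21963826 on the minus strand) are printed from RefSeq, GRCm38.p6, 5′ to 3′ with the matches in capitals, which begin 86, 80 and 54 bases before the start and lie on the other strand.

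Alas2: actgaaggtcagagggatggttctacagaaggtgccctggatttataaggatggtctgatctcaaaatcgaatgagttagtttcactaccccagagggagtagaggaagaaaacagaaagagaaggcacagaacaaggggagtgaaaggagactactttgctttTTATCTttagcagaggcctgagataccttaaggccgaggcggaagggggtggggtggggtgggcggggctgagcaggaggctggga
Klf1: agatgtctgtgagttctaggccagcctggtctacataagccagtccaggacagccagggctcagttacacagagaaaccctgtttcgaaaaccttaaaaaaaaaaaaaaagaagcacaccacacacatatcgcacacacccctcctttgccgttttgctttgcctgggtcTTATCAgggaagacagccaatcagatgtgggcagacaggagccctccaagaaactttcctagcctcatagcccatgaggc
Epor: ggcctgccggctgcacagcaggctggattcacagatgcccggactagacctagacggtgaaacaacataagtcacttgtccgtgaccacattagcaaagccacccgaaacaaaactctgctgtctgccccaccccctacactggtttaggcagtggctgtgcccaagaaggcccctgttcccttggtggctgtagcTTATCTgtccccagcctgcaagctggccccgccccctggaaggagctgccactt

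Tissue macrophage genes, some of which mark the macrophages of erythroblast islands, were lower in 8 of 21 members (median log2 fold change -1.01, and -0.42 with 6 called without TF3). Siglec1, the lectin of those macrophages, was at 2.30, 1.67 and 2.28 CPM in DF, 8.56, 5.32 and 22.8 CPM in TF and 8.29 to 17.0 CPM in WT (log2 fold change of DF over TF -2.55 ± 0.48, adjusted p = 0.010). C1qa, a chain of the first complement component, was at 2.54, 3.80 and 3.56 CPM in DF and 7.19, 8.92 and 23.5 CPM in TF (log2 fold change -1.99 ± 0.42, adjusted p = 0.019). Adgre1, which encodes F4/80 and is shared with monocytes and eosinophils, was at 108 to 114 CPM in DF and 123 to 125 CPM in TF, without a call (adjusted p = 0.30). Without DF1 3 of the macrophage genes were called, without DF3 2 and without DF2 none.

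Neutrophil genes were the main named group higher in DF. Of 35 late granule and neutrophil genes, 9 were higher and none lower (median log2 fold change 0.67), and in 24 of them every DF library lay above every TF library, where 13.7% of all genes tested did so. The summed level was 71641, 74067 and 97612 CPM in DF, 50137, 55780 and 43562 CPM in TF and between these in 2 of the 3 WT libraries. Chil3, a secreted chitinase-like protein of neutrophils and their precursors, was at 6087, 5625 and 5590 CPM in DF and 2523, 2772 and 2140 CPM in TF (log2 fold change 1.22 ± 0.19, adjusted p = 0.0043). Lrg1, a glycoprotein of neutrophil granules, was at 91.9, 89.2 and 75.5 CPM in DF and 33.9, 34.6 and 42.9 CPM in TF (log2 fold change 1.21 ± 0.16, adjusted p = 0.0030). Hp, the haptoglobin stored in granules, was at 843, 807 and 760 CPM in DF and 431, 496 and 447 CPM in TF (log2 fold change 0.81 ± 0.13, adjusted p = 0.0050). In these genes the groups did not overlap and the calls held without TF3, at adjusted p of 0.013, 0.0011 and 0.016. The most abundant members were not called: S100a8 was at 18378 to 26316 CPM in DF and 11674 to 14586 CPM in TF (adjusted p = 0.15). Against WT, 6 of the 35 were higher and 5 lower in DF (median 0.07), and 16 were lower and 2 higher in TF (median -0.65). The 9 calls fell to 5 without DF1, 3 without DF2 or DF3, and 4 without TF1 or TF3.

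Primary granule genes, which promyelocytes express, had 4 of 20 higher and none lower (median log2 fold change 0.60, and 1 called without TF3). Elane, neutrophil elastase, was at 718, 759 and 615 CPM in DF and 458, 485 and 357 CPM in TF (log2 fold change 0.69 ± 0.15, adjusted p = 0.023). Mpo, myeloperoxidase, was at 3460, 3475 and 2721 CPM in DF and 2121, 2670 and 1499 CPM in TF, and though the groups did not overlap it was not called (adjusted p = 0.12). Srgn, the proteoglycan that packs granule contents, rose by 0.58 (SE 0.11, adjusted p = 0.011). Without DF2 none of these genes was called, without DF1 1, without TF1, WT1 or WT3 2, without TFD1 8 and without TF2 9.

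Few genes of monocytes were called. Of 33, 1 was higher and 2 were lower, with a median of 0.01, and in 9 every DF library lay above every TF library. The called shares, 3.03% and 6.06%, were close to the 1.67% and 4.27% of all genes. The 9 of 33 genes with DF above TF without overlap were a larger share than the 13.7% of all genes. The summed level of the list was 27420, 25687 and 27899 CPM in DF and 25170, 22651 and 20516 CPM in TF, so the 3 DF libraries lay above the 3 TF libraries, at 1.19 times their mean and 1.13 times that of TF1 and TF2. Ccr2, the receptor that brings monocytes out of the marrow, was at 1678, 1717 and 1272 CPM in DF and 2079, 1529 and 1548 CPM in TF, both far above the 262 to 297 CPM of WT (log2 fold change of DF over TF -0.14 ± 0.16, adjusted p = 0.72). Itgam, which neutrophils also carry, was the member that rose, by 0.64 (SE 0.16, adjusted p = 0.036), though not without TF3 (adjusted p = 0.14). The 25 megakaryocyte genes had 1 lower, Gfi1b, which erythroid cells share, and a median of 0.03, and without TF3 none was called. The 42 genes of S phase and mitosis had no call in either direction by edgeR (median -0.08), 3 had an unadjusted p under 0.05, and DESeq2 called 0.

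**Figure D5:**
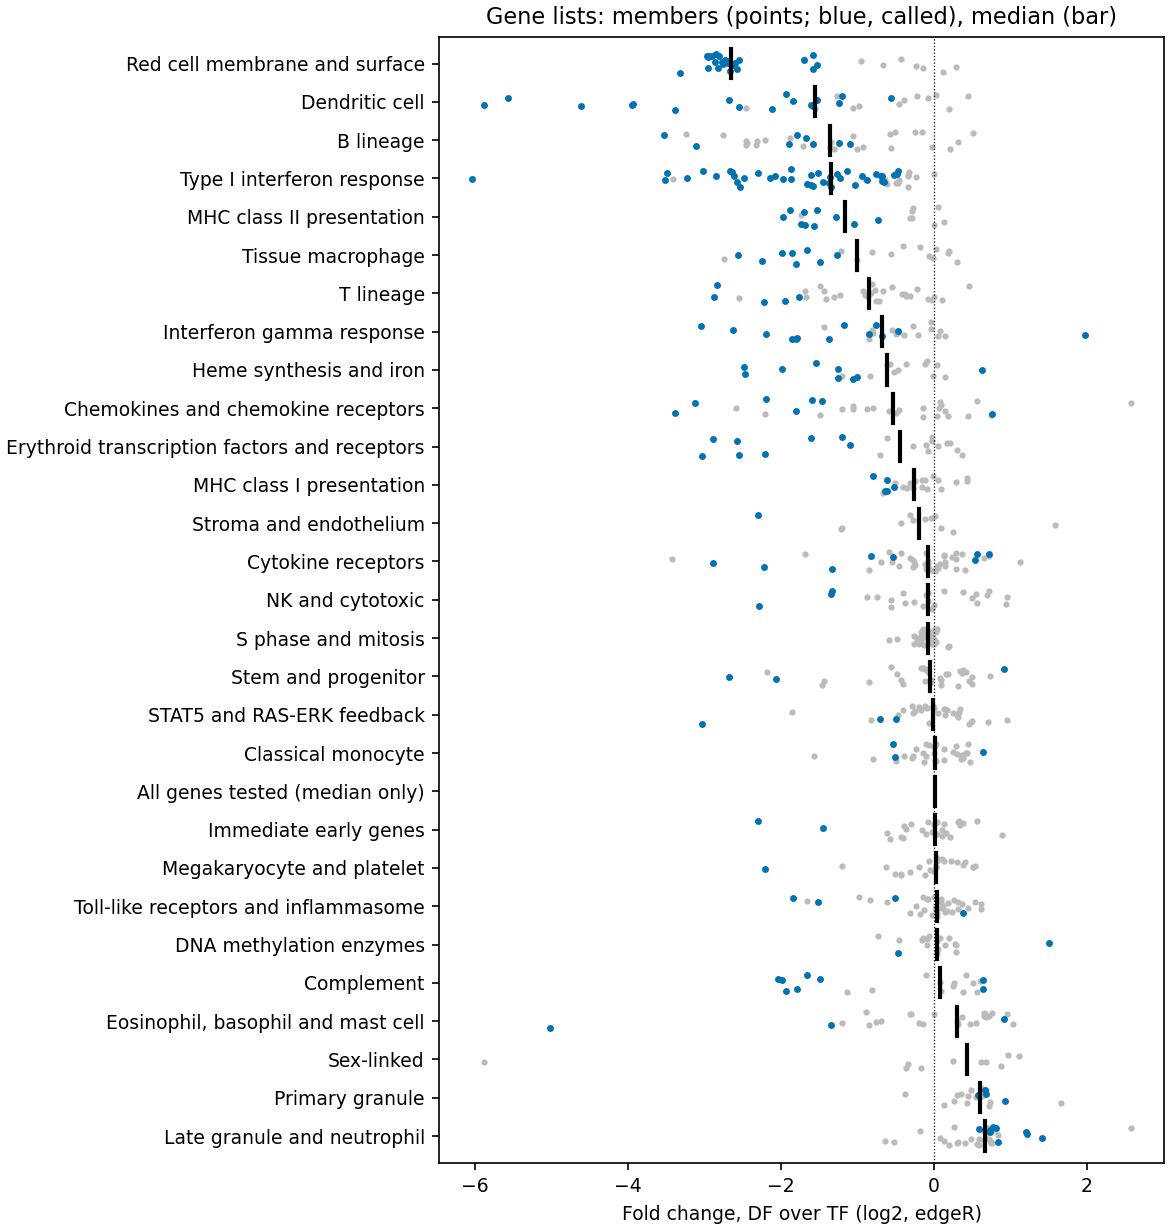
Fold change of DF over TF (horizontal axis, log2) for the members of each gene list, ordered by median. Blue points are called members, grey points are not called and black bars are medians. The red cell membrane list has the lowest median, -2.65, the late granule list the highest, 0.67, and all genes tested stand at 0.02.

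Stem cell and signalling genes differed in few members. Of 33 stem and progenitor genes, 1 was higher and 2 lower, which is 3.03% and 6.06%, close to the shares of all genes, so the count says nothing particular of the list. Gata2, a factor of stem cells, mast cells and basophils, was at 12.4, 9.52 and 13.1 CPM in DF, 6.14, 7.04 and 5.20 CPM in TF and 14.2 to 18 CPM in WT (log2 fold change of DF over TF 0.92 ± 0.20, adjusted p = 0.019), and was not called without TF3 (adjusted p = 0.063). Mycl, a Myc family factor that dendritic cells use, was at 3.65, 2.96 and 1.29 CPM in DF and 16.6, 11.5 and 23.7 CPM in TF (log2 fold change -2.68 ± 0.42, adjusted p = 0.0042). Cd34 was at 140 to 158 CPM in DF and 83.5 to 174 CPM in TF, both above the 34.2 to 42.1 CPM of WT (adjusted p = 0.87). Of 46 cytokine receptors, 3 were higher and 5 lower, or 6.52% and 10.9%, against 1.67% and 4.27% of all genes. Without DF2 none of these receptors was called. Csf2rb, the shared beta chain of the GM-CSF, IL-3 and IL-5 receptors, was at 329, 330 and 288 CPM in DF and 234, 215 and 204 CPM in TF (log2 fold change 0.53 ± 0.13, adjusted p = 0.029), and was not called without TF3 (adjusted p = 0.11). Il7r, the receptor of lymphoid precursors, was at 2.46, 2.32 and 1.68 CPM in DF and 5.74, 4.25 and 20.9 CPM in TF (log2 fold change -2.22 ± 0.52, adjusted p = 0.028), and the value without TF3 was -1.19.

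Flt3-ITD signals through STAT5 and the RAS-ERK pathway, whose feedback genes were examined in both genotypes. Of 32 such genes, 3 were lower in DF, or 9.38% against 4.27% of all genes, and none higher (median -0.01). Socs2, a STAT5 target that restrains cytokine receptors, was at 23.3, 21.6 and 20.2 CPM in DF, 37.3, 35.2 and 33.4 CPM in TF and 2.22 to 3.31 CPM in WT. Both genotypes were far above WT, and the DF libraries lay below the TF libraries with little spread in either (log2 fold change of DF over TF -0.70 ± 0.15, adjusted p = 0.020). Bcl2, which blocks apoptosis, was at 64.7, 66.7 and 65.5 CPM in DF, 95.5, 97.3 and 84.1 CPM in TF and 38.8 to 47.0 CPM in WT (log2 fold change of DF over TF -0.49 ± 0.12, adjusted p = 0.030). Both calls held without TF3, at adjusted p of 0.030 for Socs2 and 0.037 for Bcl2, while 1 of the 3 members was called without DF2, DF3 or TF1. Ccnd1, cyclin D1, was at 5.56, 2.70 and 1.68 CPM in DF and 20.2, 15.1 and 47.5 CPM in TF (log2 fold change -3.03 ± 0.49, adjusted p = 0.0049).

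Among inflammatory genes, 6 of 30 chemokine and chemokine receptor genes were lower and 1 was higher, or 20% and 3.33%. Over all genes tested, 4.27% were lower and 1.67% higher. Ccr1, a chemokine receptor of neutrophils and monocytes, rose by 0.76 (SE 0.17, adjusted p = 0.025), from 152 to 188 CPM in TF to 264 to 322 CPM in DF, and was not called without TF3 (adjusted p = 0.086). Of 39 Toll-like receptor and inflammasome genes, 3 were lower and 1 higher, or 7.69% and 2.56%, near the shares of all genes. Tlr3, the receptor for double-stranded RNA such as poly(I:C), was at 2.54, 2.06 and 0.495 CPM in DF and 5.33, 3.11 and 10.5 CPM in TF (log2 fold change -1.84 ± 0.50, adjusted p = 0.049), and was not called without TF3 (adjusted p = 0.20). Of 20 complement genes, 6 were lower and 2 higher, or 30% and 10% (median 0.09). The summed level of the complement genes was higher in every DF library, at 2602 to 3281 CPM against 2032 to 2146 CPM in TF. C3, the central component, was one of the higher genes, at 0.65 ± 0.16 (log2, adjusted p = 0.035), though not without TF3 (adjusted p = 0.14). Itgax, a complement receptor chain that dendritic cells carry, was at 12.1, 9.72 and 11.7 CPM in DF, 38.5, 20.7 and 68.4 CPM in TF and 18 to 24.6 CPM in WT (log2 fold change of DF over TF -1.93 ± 0.34, adjusted p = 0.0068). Of 29 immediate early genes, the 2 called were Hspa1a and Hspa1b, near-identical heat shock genes that fell by 1.45 (SE 0.26, adjusted p = 0.0074) and 2.30 (SE 0.43, adjusted p = 0.010). No chemokine gene was called lower without DF1, DF2 or DF3, nor any Toll-like receptor gene without DF2, DF3 or TF3, and 2 complement genes were lower without any 1 DF library. Of 26 eosinophil, basophil and mast cell genes, 1 was higher and 2 lower, or 3.85% and 7.69%, against 1.67% and 4.27% of all genes. Of 12 stromal and endothelial genes, 1 was lower, Cdh5 at 0.238 to 0.792 CPM in DF and 0.90 to 4.10 CPM in TF (adjusted p = 0.041), though not called without TF3 (adjusted p = 0.17). Of the 10 sex-linked genes edgeR called none, 0 had an unadjusted p under 0.05, and DESeq2 called 0. These genes summed to 1445, 1289 and 4122 CPM in TF1, TF2 and TF3, of which only TF3 was female. With that spread within TF, the lack of calls cannot show whether sex affected the comparison.

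Among called genes with a mean log2 CPM over the libraries of 1 or more, the largest increases in DF were led by Skint3, an immunoglobulin-like gene of the family of Skint1, which selects T cells of the skin, at chr4:112232245-112300468 (GRCm38). It had no read in TF1, TF2 or TF3, and was at 11.5, 15.1 and 9.4 CPM in DF, 3.53 to 8.68 CPM in WT and 17.1 and 26.3 CPM in TFD. Against a floor of 3 counts in each TF library, Skint3 was at least 47.2-fold higher in DF. TF and TFD share the labelled Tet2 allele, and why Skint3 had no read in TF was not tested. Lipg, an endothelial lipase, was at 27.5, 35.8 and 5.74 CPM in DF and 0.970, 1.23 and 3.01 CPM in TF (log2 fold change 3.76 ± 0.66, adjusted p = 0.0073). Vcan, the proteoglycan versican of monocytes, was at 326, 361 and 195 CPM in DF, 58.4, 69.6 and 36.2 CPM in TF and 38.6 to 209 CPM in WT, and WT overlapped with both (log2 fold change of DF over TF 2.42 ± 0.49, adjusted p = 0.014). Stap2, an adaptor of cytokine signalling, was at 10.5, 8.69 and 10.8 CPM in DF and 2.91, 3.19 and 0.730 CPM in TF (log2 fold change 2.11 ± 0.44, adjusted p = 0.016). The other 7 of the 12 largest increases at this level, besides Upp1, were Tanc1, Lama5, Dmkn, Camk2b, Asprv1, Ggt1 and Adamtsl3, with log2 fold changes of at least 1.31. Of these 7, Tanc1 and Dmkn were called without TF3.

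The largest decrease was in Rprl3, a copy of the RNA subunit of RNase P, at chr8:3803125-3803361 (GRCm38). It was at 4.60, 0.257 and 0.0990 CPM in DF, 223, 193 and 306 CPM in TF, 0.179 to 0.495 CPM in WT, and 226 and 0.535 CPM in TFD1 and TFD2. Rprl1 was at 57.2, 50.9 and 70.6 CPM in TF and 66.4 CPM in TFD1 and at most 1.59 CPM in any other library, and Rprl2 was at 2.95 to 6.75 CPM in TF and 5.44 CPM in TFD1. The TFD libraries share their labelled genotype and stood on opposite sides. The 3 genes are near-identical and the counting could have moved reads between them. Upk1b, a tetraspanin of the urothelial plaque that is also made elsewhere, was at 0.794, 0.515 and 0.198 CPM in DF, 5.33, 6.30 and 12.4 CPM in TF and at most 0.124 CPM in WT (log2 fold change of DF over TF -3.92 ± 0.58, adjusted p = 0.0036). Pdia2, Hunk, Slc30a10, Prss30 and Cd300c completed the 12 largest decreases among called genes of the same minimum level, with log2 fold changes of -4.57 to -3.95. Of these 5, Hunk and Slc30a10 were not called without TF3.

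For many of the genes described, the difference was smaller without TF3 while the call held. Without TF3 the log2 fold change was -1.87 for Gata1, -2.07 for Klf1 and -1.93 for Epor. It was -2.48 for Car1, -1.92 for Slc4a1 and -2.32 for Add2. The dendritic and lymphoid genes moved likewise, to -4.77 for Siglech, -1.93 for Ccr9, -2.63 for Spib, -1.50 for Cd22 and -1.62 for Klrd1. Siglec1 stood at -1.75, C1qa at -1.28, Ccnd1 at -2.39, Pdia2 at -3.93 and Cd300c at -3.28. Other calls were lost without DF2, the deepest library. Without it the genes Gata1, Klf1, Epor, Gfi1b, Ccr9, Pacsin1, Klrd1, Jchain, Spib, Irf4, Bcl11a, Siglec1, C1qa, Il7r, H2-Aa, H2-DMb1, Tap1, Gbp9, Socs2, Bcl2, Elane, Srgn, Itgam, Ccr1, Csf2rb, Stap2, Vcan and the 3 Rprl genes were not called, with their signs kept. Oas3, Irf9, Usp18, Oasl2, Clec9a, Alas2, Car1, Slc4a1, Add2, Chil3, Lrg1, Hp, Lipg, Upp1 and Skint3 were called with each of the 11 libraries left out in turn.

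Genes near the targeted loci were also counted. Within 10 Mb of Tet2 on chromosome 3, 3 of 57 tested genes were called, or 5.26%. Within 10 Mb of Dnmt3a on chromosome 12, 3 of 34 were called, or 8.82%, and around Flt3 on chromosome 5, 7 of 134, or 5.22%. Over all genes tested, 5.94% were called in either direction.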

How the data were processed

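Whole bone marrow mononuclear cell RNA, depleted of globin mRNA, was sequenced from 11 libraries with data here. Per the labels and the submitters' processing notes, the authors aligned reads with STAR to mm10 and counted them per gene with featureCounts. The strand setting of the counting is not given in the sources used here. The table as deposited holds raw counts per gene, log2 CPM values made by the authors, and gene lengths. The deposited log2 values were recomputed from the counts with a prior count of 0.25 and differed by at most 5e-09. A further labelled TFD sample, TFD3, was not analysed here.

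Counts were fitted with edgeR 4.0.16 in R 4.3.3 (quasi-likelihood F test, TMM factors, 4 genotype means over 11 libraries). Genes above 0.5 CPM in more than 3 libraries were kept. P-values were adjusted by Benjamini-Hochberg over all 12175 genes, and genes under 0.05 were called. SE is the log2 fold change divided by the square root of F. DESeq2 1.42.0, the study's test, was an alternative. Counting error is smallest in DF2, the deepest library. The 28 gene lists, their members and the tests were chosen with earlier results of these data known. Named genes were the targeted genes, the 12 largest changes on each side averaging 1 or more in log2 CPM, up to 4 called members of each list with the smallest p, markers and sex-linked genes. Other members were named for their roles after their values were seen.
 Results for some genes are not reported here.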

Additional observations from a re-analysis of the deposited data

How the results depend on the processing

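The calls rested on few libraries, and leaving out a single library of the 11 moved the genes higher in DF between 38 and 286 and the genes lower between 131 and 703. The members called ranged between 22 and 46 for the type I interferon list, 1 and 10 for MHC class II, 6 and 20 for dendritic cells and 3 and 13 for late granule genes. Genes higher in DF numbered 329 with DESeq2, 106 with library totals, 356 with the length correction, 33 at a fold of at least 2, and 133 with libraries under 10000 Xist reads only, the last chosen after seeing the data. MHC class II members lower numbered 3 with only DF and TF libraries, 6 with an Xist term and 4 with libraries under 10000 Xist reads only. Late granule members higher numbered 19 with DESeq2, 3 at a fold of at least 2 and 14 with the length correction. The cause was not tested, other than that the fold threshold and the smaller sample sets keep fewer genes or libraries. No named gene with a call changed direction in the settings run. Medians near 0 did turn without TF3, for monocytes from 0.01 to -0.02, megakaryocytes from 0.03 to -0.07, NK genes from -0.08 to 0.03, DNA methylation genes from 0.04 to -0.04 and STAT5 and RAS-ERK feedback genes from -0.01 to 0.01, and the median of all genes went from 0.02 to -0.07 with library totals. Of the 149 named genes, 106 were called, 34 kept their call in every setting, and 72 lost it in at least 1. The deviations of same-numbered DF and TF libraries from their group means had correlations of -0.06, 0.08 and -0.07. With group means of 3 libraries and TF3 far from TF1 and TF2, these values cannot decide whether the numbers pair the samples. With the replicate block 148 genes were higher and 452 lower. Depth limits genes with few reads, such as Siglech in DF.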

Other observations

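Among all genes tested, 4 were over 4-fold higher in each of TF1, TF2, TF3 and TFD1 than in every other library, and no gene was over 4-fold lower in those 4 libraries. The pattern was chosen after the values were seen. The genes were Rprl1, Rprl2, Rprl3 and Ear10, a ribonuclease gene of eosinophils. Ear10 was at 3.47, 3.11 and 2.01 CPM in TF and 3.0 CPM in TFD1, and at most 0.238 CPM in any other library. The labels give no batch, and the sample labels of these 4 libraries carry consecutive numbers. Whether the preparation of the libraries moved with these genes was not tested.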
